A study of Mus musculus with 6 samples.

Results

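Of 19938 genes measured on arrays of mouse liver, 10 that encode acute phase proteins were followed in each mouse: the serum amyloid A genes Saa1, Saa2, Saa3 and Saa4, and Lcn2, Hp, Orm2, Apcs, Crp and Hamp. All 10 were found, each by 1 probe set whose annotation gives a single gene symbol, and no member was lost to a filter. The members were chosen by name with the signals of these same arrays, and their differences between genotypes, already known, so the values below are a description of these mice, and no difference in a member counts as support for the way the group was chosen. Since each gene had only 1 probe set, the choice of the brightest probe set per gene did not affect any of them.

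The acute phase response is the change in plasma proteins that the liver makes when tissue is injured or infected. Il1b and Il6 from macrophages and other cells reach hepatocytes, where Stat3, NF-kB and C/EBP factors switch on genes of secreted proteins. In the mouse, Saa1 and Saa2 encode the major inducible serum amyloid A proteins, which travel on high density lipoprotein, Saa3 is made in hepatocytes as well as in macrophages and fat, and Saa4 encodes a constitutive form. The other members encode a siderophore-binding protein (Lcn2), the hemoglobin-binding haptoglobin (Hp), an alpha-1-acid glycoprotein (Orm2), the pentraxins serum amyloid P (Apcs) and C-reactive protein (Crp), and hepcidin (Hamp), the hormone that blocks iron export.

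The mutant livers (KO) came from 3 Lkb1KOlivad mice, which carry Lkb1 fl/fl alleles and TTR-CreTam, a tamoxifen-inducible Cre driven by the hepatocyte-specific transthyretin promoter. The control livers (WT) came from 3 Lkb1 fl/fl littermates without Cre, and both genotypes were on an FVB/N background. According to the methods and results text of the study, tamoxifen was given to adults of both genotypes, in 2 doses of 1.5 mg per mouse at 8 to 12 weeks of age, and most mice were examined 15 days later after, in most cases, 18 h of fasting. These livers were from fasted mice, and all 6 mice are labelled female. Because Cre was absent from all controls, an effect of the Cre transgene itself cannot be told apart from that of the deletion. The mutants are called B253, B304 and B305 and the controls B256, B267 and B302, after the labels, and values are given in that order. The numbers fall into a two-hundreds and a three-hundreds series, and nothing in the labels says what a series stands for. B253 is the only mutant of the two-hundreds, and B302 is the only control of the three-hundreds.

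Each array gave log2 signals, where 1 unit is a factor of 2, and array medians lay between 5.03 and 5.08. Stk11, the gene of Lkb1, read 6.52, 6.42 and 6.48 in the mutants and 8.24, 8.13 and 7.96 in the controls, which matches the labels of all 6 mice. It was the only gene of 19938, or 0.00502%, with a limma p adjusted over all genes under 0.05. The liver was measured as a whole, so less RNA per cell and fewer cells of a type cannot be told apart. The 9 hepatocyte markers with a probe set averaged 11.64 to 12.03 log2 units per mouse.

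The serum amyloid A genes lie next to each other on chromosome 7, in the order Saa3, Saa4, Saa1 and Saa2, and RefSeq lists each of the names Saa1 and Saa2 as an older name of the other gene. Their promoter windows, 250 bases before the start of each gene in RefSeq (build GRCm38.p6), show how close this pair is: 94.8% of aligned bases were identical between Saa1 and Saa2, with a longest shared run of 65 bases. The same comparison gave 50.2% between Saa1 and Saa3 and 46.0% between Saa1 and Saa4. The whole windows of Saa2 (chr7:46751583-46751832, plus strand) and Saa4 (chr7:46732604-46732853, minus strand) are shown because one belongs to the gene with the largest difference in this series and the other to a neighbour with almost none. Capitals mark matches to TTNNGNAA, a C/EBP-like pattern searched on both strands.
Saa2: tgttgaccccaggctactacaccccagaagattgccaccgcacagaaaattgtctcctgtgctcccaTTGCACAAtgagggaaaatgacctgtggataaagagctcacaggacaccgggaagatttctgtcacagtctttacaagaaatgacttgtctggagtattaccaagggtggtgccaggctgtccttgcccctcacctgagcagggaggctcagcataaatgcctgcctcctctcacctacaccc
Saa4: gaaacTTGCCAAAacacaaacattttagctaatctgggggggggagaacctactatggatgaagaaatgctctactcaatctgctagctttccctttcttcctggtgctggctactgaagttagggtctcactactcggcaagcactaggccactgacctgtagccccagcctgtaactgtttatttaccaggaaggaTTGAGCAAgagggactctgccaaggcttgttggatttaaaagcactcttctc

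For Saa1 and Saa3, RefSeq also lists a transcript that begins further upstream, so only stretches of 30 bases around a C/EBP-like match are shown, beside the matching stretch of Saa2. They lie at chr7:46743144-46743173 (Saa1, minus strand), chr7:46751639-46751668 (Saa2, plus strand) and chr7:46715757-46715786 (Saa3, minus strand).
Saa1: ctgtgctcccaTTGCACAAtgagggagaat
Saa2: ctgtgctcccaTTGCACAAtgagggaaaat
Saa3: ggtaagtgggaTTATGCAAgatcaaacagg
The first 2 hold the same 8 letters in capitals, and Saa1 has a further match in its window where Saa2 has none. The windows of Saa1, Saa2, Saa3 and Saa4 held 2, 1, 4 and 2 such matches, and this loose pattern occurs in 36.8% of the 32851 mouse promoter windows. The NF-kB-like pattern GGGANTTNC, present in 3.54% of windows, had no match in any of the 9 member windows, which says only that these letters are not in these windows. The Stat-like pattern TTCNNNGAA, present in 7.02%, is shown for Apcs. A match is a string of letters and was not tested as a binding site.
Apcs (chr1:172895275-172895304, minus strand): atcttcTTCTAGGAAagcacagggtcatga

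Saa2 was the member with the largest difference between genotypes. Its signal was 11.00, 9.56 and 9.81 in the mutants and 6.50, 8.42 and 8.71 in the controls, so every mutant lay above every control. The group means were 10.12 ± 0.77 and 7.88 ± 1.20 (SD, n = 3 each), a difference of 2.24 ± 0.57 (SE) on the log2 scale, which is 4.74-fold with a 95% interval of 1.93 to 11.6. Of 19938 genes, Saa2 had the largest difference in favour of the mutants. It also had the fifth largest SD over the 6 mice, and its highest and lowest mice were 22.6-fold apart.

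Saa1 followed the same order of mice at its ends. Its signal was 11.76, 10.64 and 10.54 in the mutants and 8.68, 10.16 and 10.03 in the controls, again with no overlap. The difference of 1.36 ± 0.43 (SE), or 2.56-fold with a 95% interval of 1.30 to 5.05, ranked 3 of 19938. Neither gene passed limma after adjustment over all genes (adjusted p = 0.9997 for both), and unadjusted limma p-values were 0.0123 for Saa1 and 0.00364 for Saa2. An exact permutation test of 3 against 3 mice cannot give a two-sided p under 0.1. Given the sequence shared by this pair, how far either probe set also reads the RNA of the other gene was not tested.

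The size of these differences depended on a single mouse of each genotype. Mutant B253 was the highest and control B256 the lowest for both genes, and they were 3.08 apart on the log2 scale for Saa1 and 4.50 for Saa2. Without these 2 mice, a comparison chosen after the values were seen, the differences were 0.49 for Saa1 and 1.12 for Saa2, or 1.41-fold and 2.17-fold, and the remaining 2 mutants were still above the remaining 2 controls. Leaving out 1 mouse at a time gave 0.89 to 1.62 for Saa1 and 1.56 to 2.66 for Saa2, the lowest values being those without B256. Within the two-hundreds series, which holds both of these mice and no other mutant, the difference was 2.34 for Saa1 and 3.54 for Saa2. Within the three-hundreds, where B302 is the only control, it was 0.56 and 0.97.

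**Figure D1:**
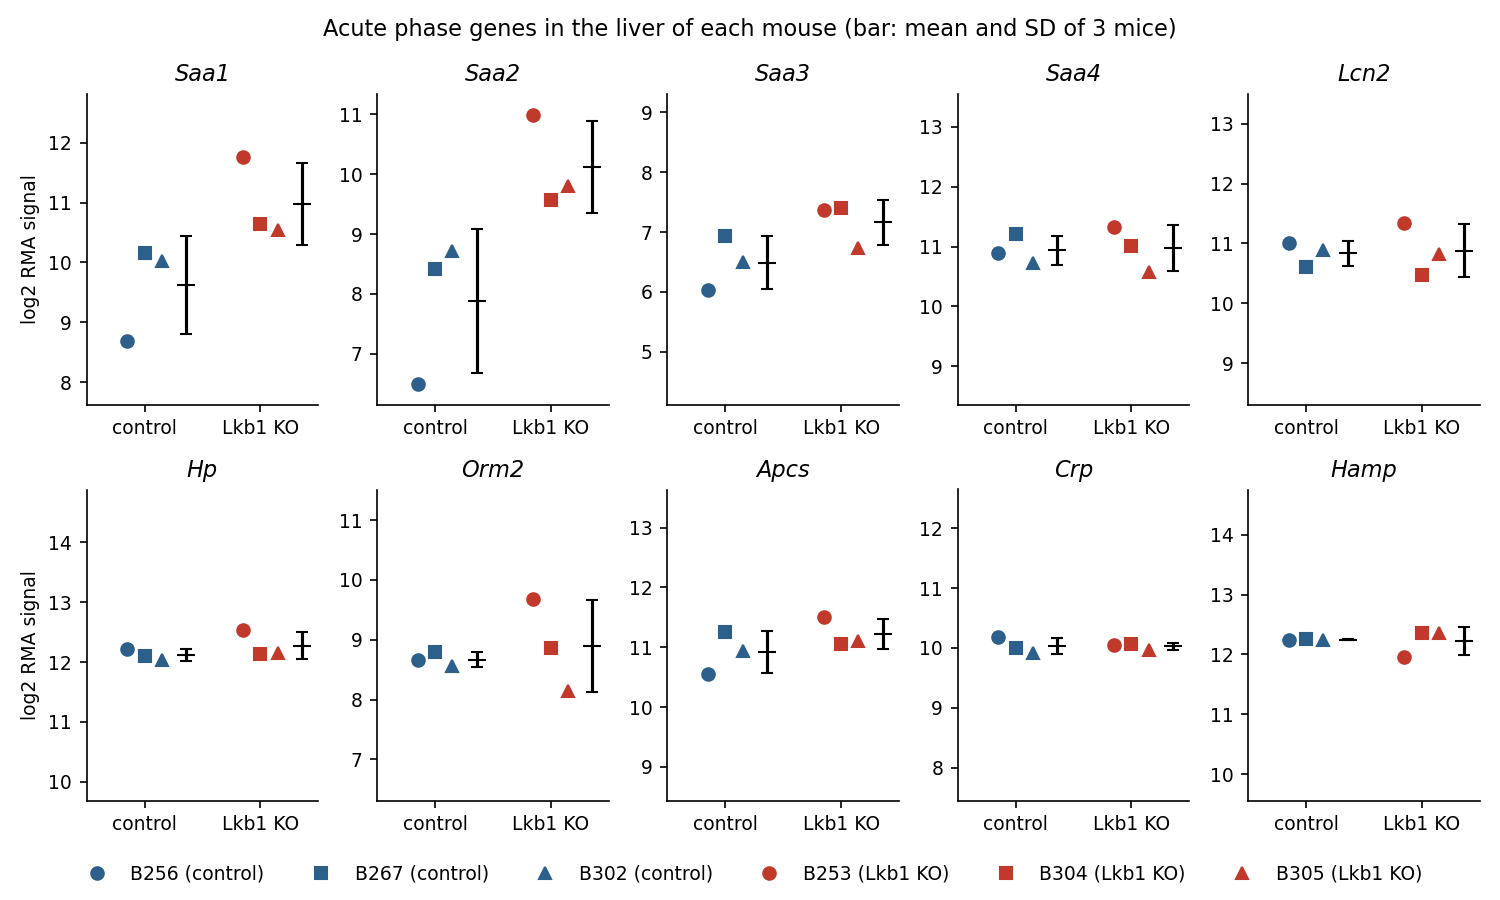
Log2 RMA signal of the 10 genes in each mouse, with controls in blue, Lkb1 mutants in red, a symbol per mouse and black bars for mean and SD of 3 mice; every panel spans the same number of log2 units. Saa1 and Saa2 separate the genotypes, with B256 at 8.68 and 6.50 and B253 at 11.76 and 11.00, and the other 8 genes overlap.

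Saa3, the form also made outside hepatocytes, was higher in the mutants on average but not without overlap. The mutants read 7.36, 7.40 and 6.73 and the controls 6.04, 6.93 and 6.50, so mutant B305 lay below control B267. The difference was 0.67 ± 0.25 (SE) on the log2 scale with a 95% interval of 0.10 to 1.25, and the unadjusted limma p was 0.0260. That p was 0.0836 without B253, 0.0929 without B256, 0.0515 without B302 and 0.0960 without B304. It was smaller, at 0.0058 without B267 and 0.0070 without B305. The difference ranged from 0.45 to 0.89 over all mice left out in turn. Without both B253 and B256 it was 0.35.

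Saa4 had the smallest difference of the serum amyloid A genes. Its signal was 11.34, 11.01 and 10.58 in the mutants and 10.90, 11.21 and 10.72 in the controls, and the highest and the lowest mouse were both mutants. The difference was 0.03 ± 0.20 (SE), with a 95% interval of -0.43 to 0.50. This interval lies below the estimates for Saa1 and Saa2 but overlaps the log2 interval of Saa1, 0.38 to 2.34. Whether the difference of Saa4 departs from that of either gene was not tested. Over the 6 mice, Saa4 had a Pearson r of 0.43 with Saa1, 0.26 with Saa2 and 0.56 with Saa3, whereas Saa1 and Saa2 had 0.98. These correlations describe 6 livers read on the same arrays, and no p is attached to them.

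Among the pentraxins, which bind bacteria and debris, Apcs leaned the way of Saa1 and Crp did not. Apcs read 11.51, 11.06 and 11.11 in the mutants and 10.56, 11.26 and 10.94 in the controls. Its lowest mouse was B256 and its highest B253, as for Saa1, but control B267 lay above 2 of the 3 mutants. The difference was 0.30 ± 0.20 (SE), with a 95% interval of -0.14 to 0.75, and without B253 and B256 it was -0.02. Crp, a weak acute phase gene in mice in spite of its name in human medicine, varied least of the 10 members. It lay between 9.92 and 10.18 in all 6 mice and differed by -0.01 ± 0.12 (SE), with a 95% interval of -0.28 to 0.26.

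Hp, Lcn2 and Orm2 had their highest signal in B253 and little difference besides. Hp read 12.54, 12.14 and 12.15 in the mutants and 12.23, 12.10 and 12.03 in the controls, a difference of 0.16 ± 0.14 (SE) that was 0.03 without B253. Lcn2 read 11.35, 10.47 and 10.82 against 11.01, 10.60 and 10.89, a difference of 0.04 ± 0.22 (SE). For both genes a mutant other than B253 lay below a control.

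Orm2 had the widest spread of the 3 and both of its extremes among the mutants. They read 9.68, 8.86 and 8.14, around controls at 8.66, 8.80 and 8.55, and the difference was 0.22 ± 0.32 (SE). It was 0.96 within the two-hundreds, where B253 is the only mutant, and -0.05 within the three-hundreds, where B302 is the only control. Without B253 the difference of Orm2 was -0.17. Its close relatives Orm1 and Orm3 differed by 0.17 ± 0.13 and -0.13 ± 0.23 (SE). The promoter windows of Orm2 and Orm3 were 85.9% identical, and signal shared among these genes was not tested.

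Hamp, the iron hormone, was nearly level in the controls, at 12.25, 12.26 and 12.24, and spread more in the mutants, at 11.96, 12.35 and 12.36. The difference was -0.02 ± 0.14 (SE), with a 95% interval of -0.34 to 0.29. B253, the mouse with the highest signal of 7 members, had the lowest Hamp. Over the 6 mice Hamp ran opposite to Orm2 (Pearson r = -0.86), Hp (r = -0.84) and Lcn2 (r = -0.84), values that describe these livers and rest largely on B253. Its paralog Hamp2 read 6.91, 7.54 and 7.83 in the mutants and 7.39, 7.62 and 7.76 in the controls, and B253 was lowest there too.

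**Figure D2:**
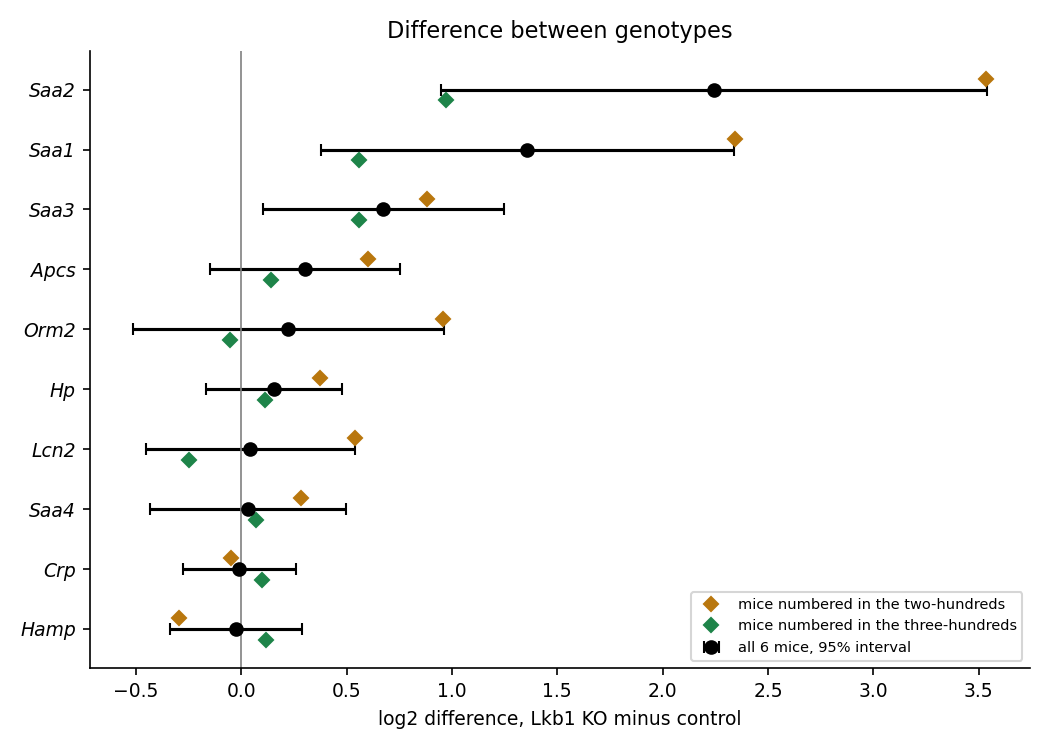
Log2 difference between mutants and controls for each gene: black points and bars give the estimate over all 6 mice and its limma 95% interval, and diamonds the difference within the two-hundreds (orange) and the three-hundreds (green) series of mouse numbers. Saa2, Saa1, Saa3, Apcs, Hp and Saa4 lie above 0 in all 3, and Orm2, Lcn2, Crp and Hamp take opposite signs in the 2 series. B253 is the only mutant of the two-hundreds, and B302 is the only control of the three-hundreds.

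Counted together, 0 of the 10 members passed the adjusted threshold. At an unadjusted limma p under 0.05, 3 were higher in the mutants, where 1.52% of all genes were, and 0 were lower, where 1.51% were. In 2 of 10 all mutants lay above all controls, against 3.46% of all genes, and in 0 of 10 all mutants lay below, against 3.70%. The median difference of the members was 0.19, and that of all genes 0.0049. As this contrast helped to choose the members, these counts are not read further. No member was dim: each had a mean above 5.26, the median over all genes.

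B253 had the highest signal of the 6 mice in 7 of the 10 members, where it was highest in 14.9% of all genes. B256 had the lowest in 4 of the 10, namely Saa1, Saa2, Saa3 and Apcs, where it was lowest in 16.0% of all genes. Taking each mouse's deviation from the control mean, the median over the members was 0.55 in B253, 0.12 in B304 and 0.07 in B305, and in the controls it lay between -0.03 and 0.20.

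Other positive acute phase proteins, a list of 17 of which 16 had a probe set, were mostly highest in mutant B253. That mouse was the highest in 12 of these 16, where it was highest in 14.9% of all genes. None of the 16 had an unadjusted limma p under 0.05, in none did the groups separate, and the median difference was 0.12, with 14 above 0, where 51.6% of all genes were. Serpina3n, a protease inhibitor that is a strong acute phase gene in mice, had the smallest p of the list: it read 11.49, 11.42 and 10.95 in the mutants and 11.04, 10.84 and 10.99 in the controls, a difference of 0.33 ± 0.16 (SE). The 7 negative acute phase genes, such as the albumin gene Alb, which fall in inflammation, had a median difference of 0.0013 and none with an unadjusted limma p under 0.05. Their smallest p was that of Serpina6, which encodes the corticosteroid carrier of plasma and differed by 0.35 ± 0.34 (SE).

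Of the cytokines that induce these genes, Il1b had the smallest p among 8 with a probe set. It read 6.92, 5.21 and 5.65 in the mutants and 5.23, 5.22 and 5.07 in the controls, so B253 was far above the rest and mutant B304 below 2 controls. The difference was 0.75 ± 0.37 (SE), with an unadjusted limma p of 0.0707, and without B253 and B256 it was 0.29. Il6, the best known inducer, stayed between 2.55 and 2.92 in all 6 mice, among the dim probe sets of the array. Its signal does not measure the cytokine in plasma. Il1b was the only cytokine of the 8 above 0, where 51.6% of all genes were, and the median of the 8 was -0.09. Osm, oncostatin M of the Il6 family, read 4.38, 4.37 and 4.44 in the mutants and 4.65, 4.73 and 4.50 in the controls. Every mutant lay below every control, an order that 3.70% of all genes had, and the unadjusted limma p was 0.0757. Of the 8 cytokines 5 were dim, Osm among them. Il1a differed by -0.54 ± 0.33 (SE).

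Further along the pathway, 16 receptors and signal proteins and 7 transcription factors held no gene with an unadjusted limma p under 0.05, and their medians were 0.02 each. Lifr, a receptor chain for cytokines of the Il6 family, differed by 0.28 ± 0.14 (SE). Cebpa, a C/EBP factor of hepatocytes, differed by -0.31 ± 0.17 (SE). Stat3, the factor activated through the Il6 receptor, was highest in B253 at 8.85, with the other mutants at 8.45 and 7.91 and the controls between 7.93 and 8.15.

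Control of hepcidin was covered by 22 genes. At an unadjusted limma p under 0.05, 0 of them were higher in the mutants and 1 was lower, where 1.52% of all genes were higher and 1.51% lower. Hjv, the hemojuvelin coreceptor for bone morphogenetic proteins that drives Hamp, averaged less in the mutants, at 7.53, 6.85 and 6.91 against 7.92, 7.58 and 7.49. The difference was -0.57 ± 0.20 (SE), and mutant B253 lay just above control B302. It did not pass adjustment over all genes in limma (adjusted p = 0.9997). The median of the 22 genes was 0.0007, and Hamp itself did not differ beyond the spread between mice. Among 9 receptors and binding partners of the member proteins, such as the haptoglobin receptor Cd163, none had an unadjusted limma p under 0.05. The smallest was that of Hpx, which encodes the heme carrier hemopexin and differed by 0.19 ± 0.16 (SE).

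**Figure D3:**
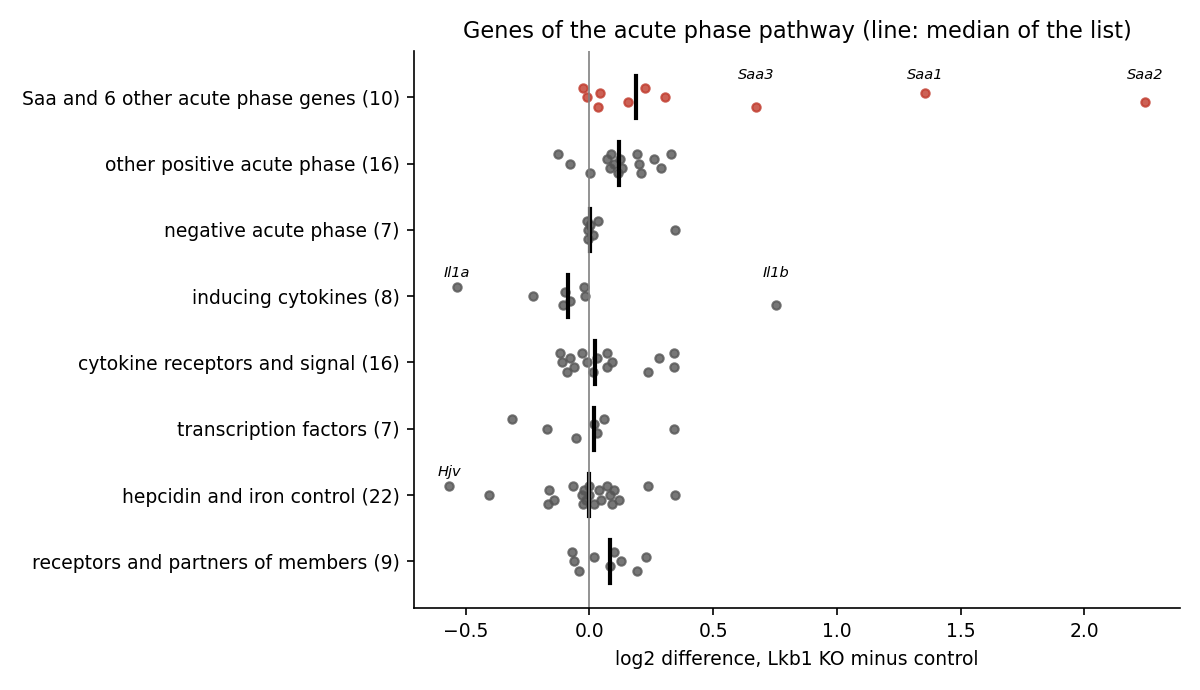
Log2 difference between mutants and controls for each gene of 8 lists, with a dot per gene, the number of genes in brackets and a vertical line at the median of each list; genes more than 0.5 from 0 are named. Saa2, Saa1 and Saa3 lie to the right of the other acute phase genes, whose 16 values stay between -0.13 and 0.33.

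To see which other genes ordered the mice as Saa1 and Saa2 did, each gene was set against the mean of the pair over the 6 mice, among 373 genes with an SD of at least 0.5. Leap2, which encodes a liver peptide that blocks the ghrelin receptor, came first with a Pearson r of 0.94, followed by Fst, the activin-binding follistatin, with 0.91. Saa3 came next with 0.86. The other 7 were Serpinb1a, an inhibitor of neutrophil proteases, the histone gene H3c15, Gnat1, F2rl2, the chaperone gene Dnajb9, Tmem25 and the protease inhibitor gene Slpi, with 0.86 down to 0.78. Of these, Serpinb1a and H3c15 were dim. Apcs, with 0.89, fell short of the SD minimum, and the remaining members lay between -0.45 for Crp and 0.50 for Hp.

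Leap2 read 8.46, 6.92 and 7.73 in the mutants and 5.76, 6.88 and 7.38 in the controls. Like Saa2 it was highest in B253 and lowest in B256, but its groups overlapped. Slpi read 6.62, 7.04 and 6.79 against 5.24, 6.34 and 5.52, with all mutants above all controls and a difference of 1.12 ± 0.26 (SE). Dnajb9, F2rl2 and Tmem25 also had all mutants above all controls, and none of the 10 genes passed adjustment in limma. Since Saa1 and Saa2 separate the genotypes, choosing genes alike to them favours such an order, which 3.46% of all genes had. Without B253 and B256, Tmem25 was the only one that stayed among the 10 most alike. Over the remaining 4 mice the r of Leap2 was 0.37, that of Saa3 0.44, that of Serpinb1a -0.21 and that of Gnat1 -0.67, while those of Tmem25, Dnajb9, Slpi and F2rl2 were 0.98, 0.91, 0.80 and 0.70.

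**Figure D4:**
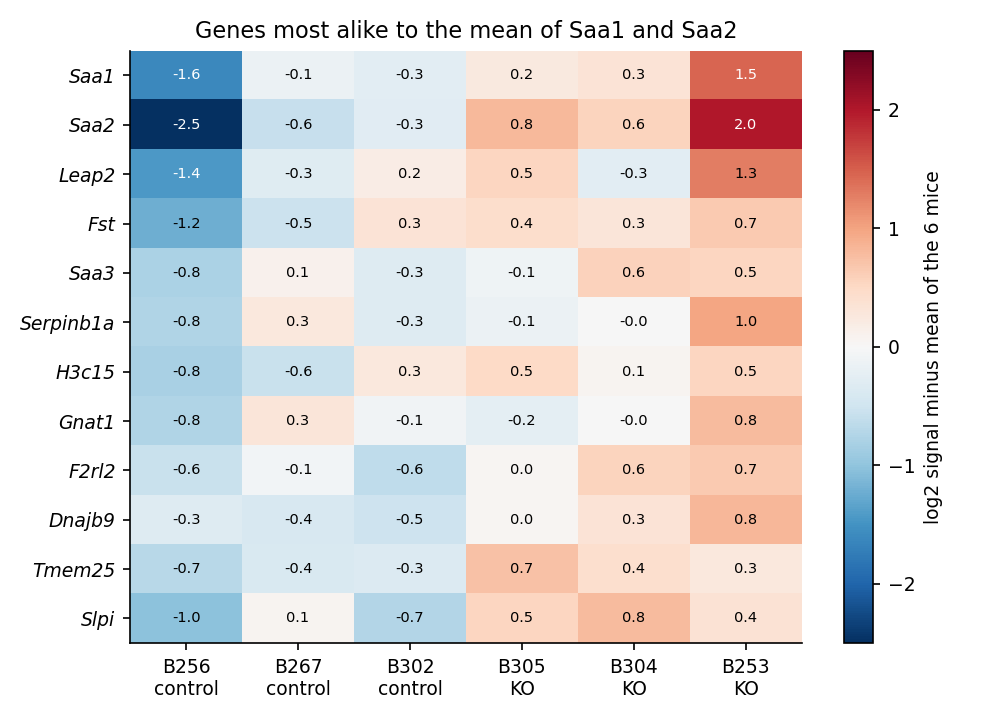
Log2 signal minus the mean of the 6 mice for Saa1, Saa2 and the 10 genes most alike to their mean, with mice in columns and red above and blue below the gene's own mean. B256 is the lowest column for most genes and B253 the highest for most, as it is for Saa2 at 6.50 and 11.00 log2 signal.

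Markers of other cells that make or respond to these proteins were read in the same livers. Of 13 neutrophil markers 9 were dim, and 0 had an unadjusted limma p under 0.05. Of the 13 markers 10 were above 0, where 51.6% of all genes were, and the median difference was 0.08. Their mean level was 4.90 to 5.23 in the mutants and 4.76 to 5.17 in the controls. Cxcr2, a chemokine receptor of neutrophils, read 5.22, 5.26 and 4.26 against 4.40, 4.57 and 4.28, and had the smallest p of the list. The 12 Kupffer cell markers averaged 6.80 to 7.10 in the mutants and 6.79 to 7.39 in the controls. Of these, 2 were above 0 and the median difference was -0.16. Timd4 had the smallest p, at a difference of -0.31 ± 0.16 (SE). B253 was the highest in 0 of the 12, where it was highest in 14.9% of all genes. The part of these cells in the signal of Saa3, Lcn2 or Il1b was not tested.

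Among the remaining lists, stellate cell markers had a mean below that of the controls in 8 of 8, where 48.4% of all genes did, with unadjusted limma p-values of 0.0127 for Lrat and 0.0456 for Rgs5, beside 1.51% of all genes lower at that threshold. Their median difference was -0.27, and their mean level was 6.38 to 6.75 against 6.77 to 6.99. Endothelial markers averaged 6.74 to 6.82 against 6.82 to 7.11, Stab2 having the smallest p at a difference of -0.31 ± 0.17 (SE). Single genes with an unadjusted limma p under 0.05 were Nkg7 (T and NK cells, -0.54 ± 0.23 SE), Cd79a (B cells, 0.42 ± 0.16 SE) and Upk1b (mesothelium, 0.73 ± 0.29 SE). In their lists, 4 of 9 T and NK cell markers were above 0, with a median of -0.09 and 8 of the 9 dim. Of 5 B cell markers Cd79a alone was above 0, with a median of -0.06 and 4 of the 5 dim, Cd79a among them. Of 6 mesothelial markers 4 were above 0, with a median of 0.07. Over all genes, 51.6% were above 0, and 1.52% were higher in the mutants at an unadjusted limma p under 0.05. The smallest p of the hepatocyte, monocyte, adipocyte and pancreatic acinar lists belonged to Tat, S100a4, Fabp4 and Cpa1, none of them under 0.05. No marker of any list passed adjustment over all genes, and what these levels contribute to the values of the members was not tested.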

How the data were processed

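Liver RNA from 3 Lkb1KOlivad and 3 control mice was read on 1 array per mouse. Per the labels, the authors made the deposited log2 values with RMA (background correction, normalization between arrays, summary into probe sets) and Partek, with no version given, and they were used as deposited. There are no detection calls. Precision is limited by the 6 arrays: the 95% interval of a difference reached a median of 0.32 log2 units to each side.

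Of 35556 probe sets, 21789 had 1 gene symbol in the platform annotation, which belongs to an older Mouse Gene array than the methods name. Another 1621 had several symbols and 12146 none, and these were not used. Symbols were updated by gene identifier, which was found for 21698. The brightest probe set of each gene gave 19938 genes. Genotypes came from the labels and were compared with limma 3.58.1 in R 4.3.3 (lmFit and eBayes, two-sided, Benjamini-Hochberg over all genes, threshold 0.05), a step tested on simulated data. Dim means a mean under 5.26, the median over genes. Promoter windows and names came from RefSeq tables of GRCm38.p6, in which 9 of the 10 members had a window, and were aligned globally (match 1, mismatch -1, gap -2). One promoter stretch is not reported here.

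The members, the gene lists and their tests were chosen with earlier results of these data known. Named are the members, their close paralogs and Stk11, from each other list the genes with an unadjusted p under 0.05 (at most 4) or else the one with the smallest p, and the 10 genes most alike to Saa1 and Saa2. Stat3, Il6, Osm, Il1a, Alb and Cd163 were named outside this rule, after their values were seen.

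Alternatives were the methods' t-test, array weights, robust estimation with an intensity trend, quantile normalization, median centring, a filter on dim genes, averaging probe sets, the mouse number series as a block or taken apart, leaving out each mouse, and leaving out both B253 and B256. The last was chosen after seeing the data.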

Additional observations from a re-analysis of the deposited data

How the results depend on the processing

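No member passed the adjusted threshold under the 14 alternatives that give a test; the differences within each number series and without both B253 and B256 have none. The differences of Saa1, Saa2, Saa3 and Hp stayed above 0 in all 17 alternatives, at 0.49 to 2.34, 0.97 to 3.54, 0.35 to 0.89 and 0.03 to 0.37, while those of the other 6 members changed sign in at least 1. Their ranges were -0.02 to 0.60 for Apcs, -0.18 to 0.96 for Orm2, -0.17 to 0.29 for Saa4, -0.25 to 0.54 for Lcn2, -0.07 to 0.10 for Crp and -0.29 to 0.12 for Hamp. The median of the members was 0.15 after quantile normalization, 0.20 after median centring, 0.11 with array weights and 0.31 with the number series as a block, and 0.07 to 0.30 when each mouse was left out in turn. The methods' t-test gave 0 genes past the adjusted threshold and 0 members at an unadjusted p under 0.05, where limma gave 1 and 3; the t-test p of Saa2 was 0.0525. When each mouse was left out in turn, 0 to 1 genes passed adjustment and 2 to 4 members had an unadjusted p under 0.05. It was 0 genes without any one of B253, B304, B305, B256 or B267, and 1 without B302. Of the 10 genes most alike to Saa1 and Saa2, 5 were shared with a list by Spearman rho, 0 with a list without an SD minimum and 1 without B253 and B256; the causes were not tested. No paired analysis was possible because the labels give the groups no shared replicate numbers.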

Other observations

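Genes whose signal ran opposite to the mean of Saa1 and Saa2 over the 6 mice were also read, among the same 373 genes. The lowest Pearson r belonged to Serpina5, a serine protease inhibitor gene, at -0.92, and to Zyg11a at -0.90, followed by Map2k6, Fmo2 and Hsd3b1. Of these, Zyg11a and Hsd3b1 were dim. Zyg11a read 4.17, 4.12 and 4.50 in the mutants B253, B304 and B305 and 6.13, 5.67 and 5.14 in the controls B256, B267 and B302, so every mutant was below every control. Serpina5 read 4.88, 5.05 and 5.25 against 6.18, 5.99 and 5.57, also without overlap. For the flavin monooxygenase gene Fmo2 and for Map2k6, a kinase gene of the p38 pathway, the groups overlapped, and B253 was the lowest and B256 the highest mouse for both. Without B253 and B256 the r of Zyg11a was -0.93 and that of Serpina5 -0.90, while those of Map2k6 and Fmo2 were 0.13 and 0.45. These 5 genes were chosen after their values were seen, and none passed adjustment over all genes in limma. The adjusted limma p was 0.61 for Zyg11a and 0.9997 for Serpina5. Choosing genes that run opposite to a pair that separates the genotypes favours genes with every mutant below every control. Over all genes, 3.70% had this order.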
